A study of Mus musculus with 30 samples.

Results

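The T cell genes described here are Cd3d, Cd3e, Cd3g, Cd4, Cd8a, Cd8b1, Lck, Cd2, Cd28 and Thy1. They were chosen by gene symbol, by matching the symbols to the Ensembl identifiers in the count tables, and are 10 of the 39179 genes counted. Each symbol matched a single identifier.

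The study fed C57BL/6 male mice isocaloric growth diets that differed in their source of fat, and collected the ventral prostate. The diets contained linseed oil (LO, rich in omega-3 polyunsaturated fatty acids), soybean oil (SO, rich in omega-6 polyunsaturated fatty acids) or pork fat, that is lard (PF, rich in saturated fatty acids), and were given from weaning for 12 or 32 weeks. RNA of each of 30 prostates was sequenced as stranded mRNA libraries on the HiSeq platform. The 6 groups were SO, LO and PF at 12 weeks and SO, LO and PF at 32 weeks, with 5 mice in each and the same fat content in every diet. The mice at 32 weeks were also older than those at 12 weeks, so time on the diet, age and any processing batch that went with the time point cannot be told apart.

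T cells carry a receptor whose antigen-binding chains pair with the CD3 chains, and the CD3 chains pass the signal into the cell. The coreceptors CD4 and CD8 bind major histocompatibility complex proteins on the cell that presents the antigen, and bring the kinase Lck to the receptor. The prostate holds T cells in its stroma and between epithelial cells, and their number is known to grow in prostatitis.

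Between 27590631 and 41301707 counts fell on genes in each mouse. The medians by group were 33483999 for SO, 35390110 for LO and 36807997 for PF at 12 weeks, and 31532350, 32039478 and 36874221 in the same order at 32 weeks. Levels are given as CPM, the counts of a gene per 1e+06 counts of a library size scaled by the trimmed mean of M values (TMM). At this depth counts in a mouse ranged from 2 to 160 for Cd3d and from 15 to 300 for Cd3g. A filter on low counts kept 9 of the 10 genes among 15873 at 12 weeks, where Cd8b1 fell below it. It kept all 10 among 16218 at 32 weeks, and all 10 among 16605 when the 6 groups were fitted together.

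Some mice stood apart. SO mouse 4 at 32 weeks had the highest level of its group for 10 of 10 genes and the highest of all 30 mice for 9 of them, at a median of 4.05 times the median of the other mice of its group. PF mouse 2 at 32 weeks was the highest of its group for 10 of 10 genes, at a median of 1.90 times, and had the highest Thy1 of the 30 mice. LO mouse 4 at 12 weeks was the highest of its group for 8 of 10 genes, at a median of 2.72 times. PF mouse 5 at 12 weeks was the lowest of its group for 8 of 10 genes, at a median of 0.456 times. LO mouse 3 at 32 weeks stood apart in Cd4 among the T cell genes. Its summed macrophage markers were the highest of the 30 mice, as were its fibroblast markers and its lymph node stroma and high endothelial venule markers.

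**Figure D1:**
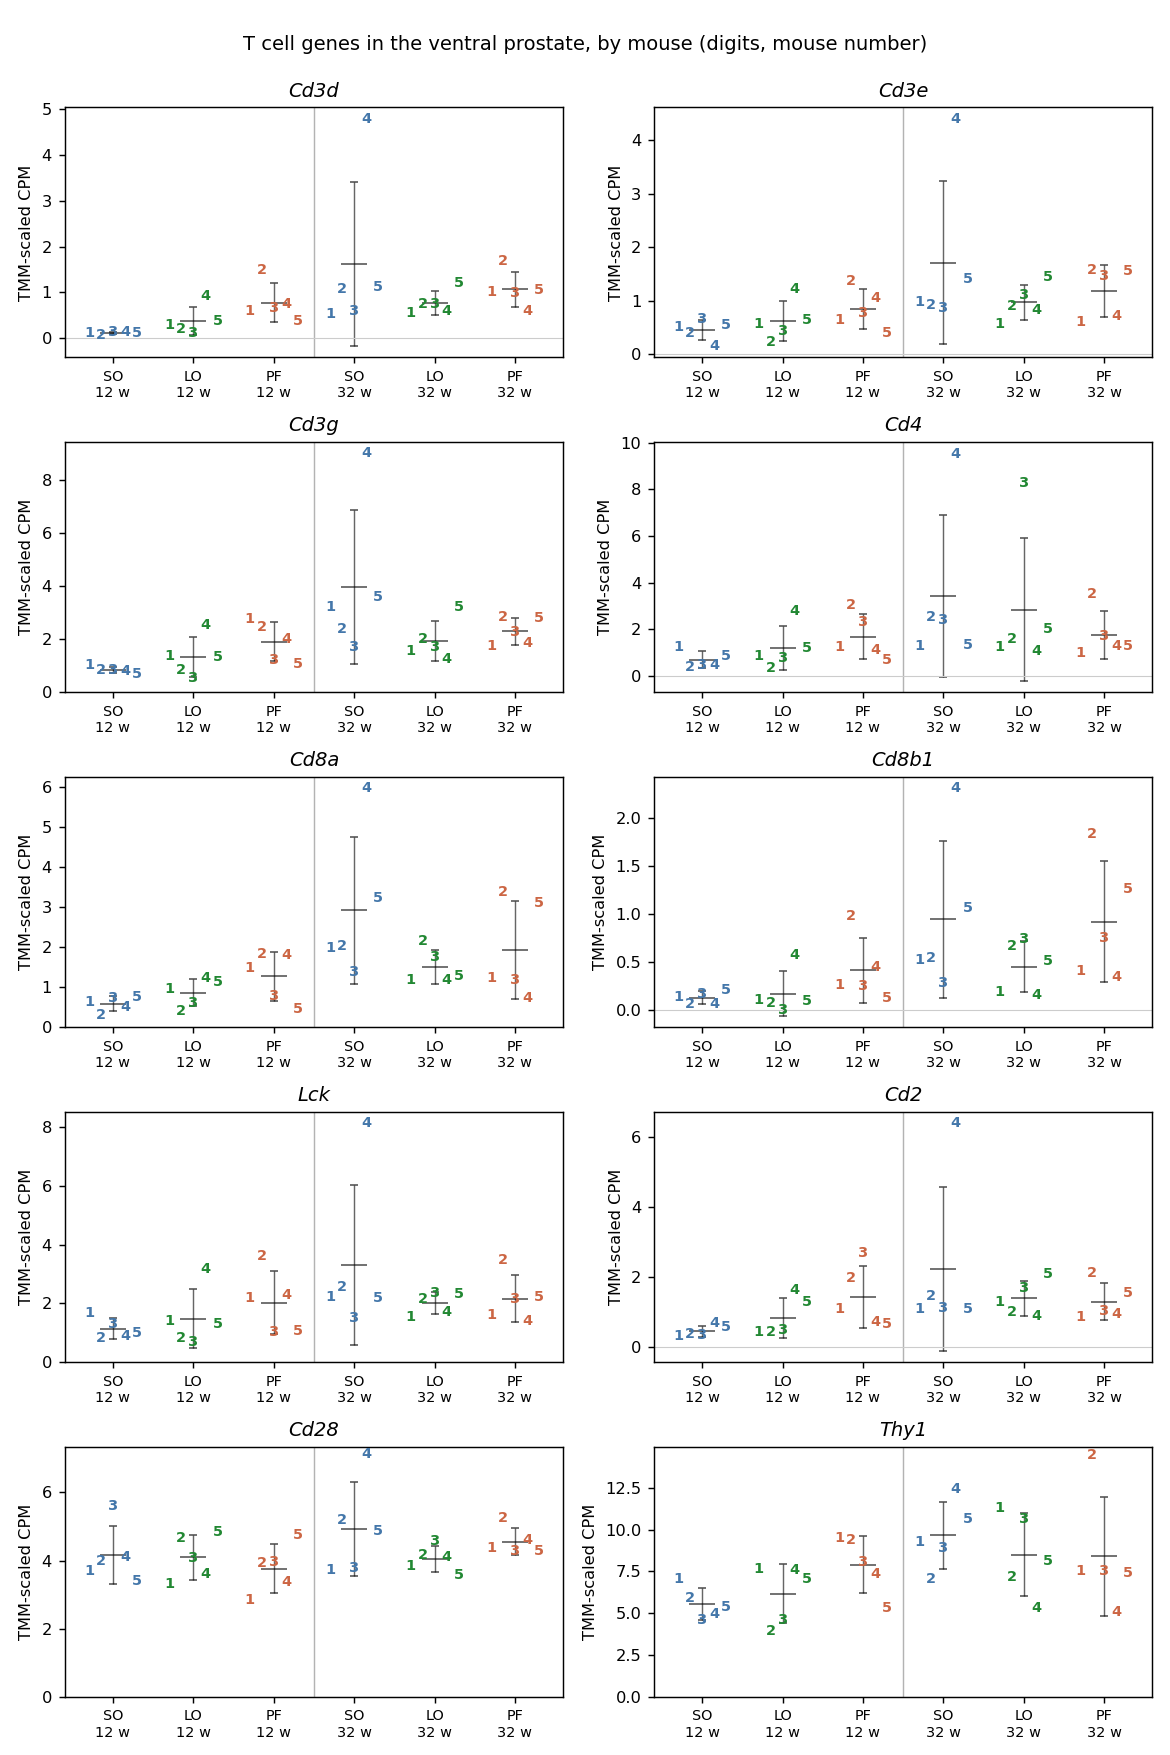
Level of each T cell gene (TMM-scaled CPM) in each of the 30 mice, with the mouse number as the plotting symbol, and the mean and SD of each group of 5 as bars. SO mouse 4 at 32 weeks lies above the rest of its group in every panel, at 2.31 CPM for Cd8b1, the lowest level, up to 12.4 CPM for Thy1, the highest.

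Compared per kilobase of exon, Thy1 was the most abundant of the 10 genes at 2.57 ± 0.828 CPM per kb (mean ± SD, n = 30 mice). Over the same 30 mice Cd2 was at 0.728 ± 0.652, Cd28 at 0.696 ± 0.135, Lck at 0.690 ± 0.475 and Cd3g at 0.626 ± 0.477 CPM per kb. Cd4 at 0.478 ± 0.512, Cd3d at 0.431 ± 0.479, Cd8a at 0.415 ± 0.322, Cd8b1 at 0.338 ± 0.363 and Cd3e at 0.236 ± 0.187 CPM per kb were lower. Below Thy1 the order differed between groups, and in SO at 12 weeks Cd28 was at 0.679 and Cd2 at 0.256 CPM per kb.

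Cd3d, Cd3e and Cd3g encode the delta, epsilon and gamma chains of the CD3 complex. They lie side by side on chromosome 9 of the mouse genome build GRCm38, Cd3g (ENSMUSG00000002033) at 44969572 to 44980431 on the minus strand, Cd3d (ENSMUSG00000032094) at 44981786 to 44987339 on the plus strand and Cd3e (ENSMUSG00000032093) at 44998740 to 45009627 on the minus strand. The starts of Cd3g and Cd3d are 1355 bases apart and point away from each other, and the start of Cd3e is 27.8 kb from that of Cd3d. Cd3e overlaps the predicted genes Gm48719 on the opposite strand and Gm48720 on the same strand. The 3 genes moved together across the mice, and so did genes elsewhere. Lck on chromosome 4 and Cd8b1 on chromosome 6 had a Pearson's r of 0.92 each with the mean of the 3. The 300 bases around each start (250 before and 50 after, RefSeq, GRCm38.p6) are shown, 5′ to 3′ on the strand of the gene: chr9:44980382-44980681 on the minus strand for Cd3g, chr9:44981536-44981835 on the plus strand for Cd3d and chr9:45009562-45009861 on the minus strand for Cd3e.
Cd3g: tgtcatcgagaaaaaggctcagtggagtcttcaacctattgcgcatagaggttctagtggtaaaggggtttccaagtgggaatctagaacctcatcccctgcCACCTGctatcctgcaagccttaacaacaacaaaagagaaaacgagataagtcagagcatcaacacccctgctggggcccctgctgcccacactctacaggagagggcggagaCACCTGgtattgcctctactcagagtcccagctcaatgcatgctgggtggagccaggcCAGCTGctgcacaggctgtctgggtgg
Cd3d: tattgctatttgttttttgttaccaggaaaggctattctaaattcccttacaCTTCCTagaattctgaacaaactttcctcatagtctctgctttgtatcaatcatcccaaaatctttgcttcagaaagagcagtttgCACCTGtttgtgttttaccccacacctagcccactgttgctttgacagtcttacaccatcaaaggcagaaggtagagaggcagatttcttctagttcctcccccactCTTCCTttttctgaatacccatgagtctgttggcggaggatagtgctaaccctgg
Cd3e: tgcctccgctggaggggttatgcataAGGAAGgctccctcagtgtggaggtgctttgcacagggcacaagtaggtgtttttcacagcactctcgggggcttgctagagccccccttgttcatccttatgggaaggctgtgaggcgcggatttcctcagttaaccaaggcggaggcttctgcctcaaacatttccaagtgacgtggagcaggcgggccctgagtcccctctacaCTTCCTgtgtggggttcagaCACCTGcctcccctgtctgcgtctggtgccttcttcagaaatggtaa
Capitals mark 4 motifs, searched on both strands: AGGAAG, which holds the core of Ets factor motifs, the E box CACCTG, the E box CAGCTG, and the Runx factor motif TGTGGT. They can overlap, and did not in these windows. Cd3g held CACCTG at 2 places and CAGCTG at 1, and Cd3d and Cd3e each held AGGAAG at 2 places and CACCTG at 1. Among 32851 windows of the same length around gene starts, 35.4% held AGGAAG, 20.2% CACCTG, 16.3% CAGCTG and 16.8% TGTGGT. A match of letters is a description of the window and was not tested as a binding site. Of the 10 genes, 5 had windows in the reference, the others being Cd8a and Lck, and none was available for Cd4, Cd8b1, Cd2, Cd28 and Thy1.

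Cd3d had the widest differences of the 3 CD3 genes at 12 weeks and over time in SO. At 12 weeks its level in SO mice 1 to 5 was 0.101, 0.0615, 0.132, 0.123 and 0.116 CPM. In LO it was 0.281, 0.189, 0.108, 0.911 and 0.365 CPM, and in PF 0.596, 1.48, 0.664, 0.745 and 0.376 CPM. All 5 PF mice were above all 5 SO mice, while the LO mice overlapped both other groups. The SO values rest on 2 to 4 counts in a mouse and 17 in the group, which gives a pooled level of 0.106 CPM with an exact Poisson 95% interval of 0.0620 to 0.170, against 0.777 CPM (0.651 to 0.920) in PF. These intervals cover counting error only. In bulk tissue, fewer T cells and less RNA of a gene in each cell cannot be told apart, here and in every result that follows.

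At 32 weeks Cd3d was at 0.519, 1.07, 0.589, 4.80 and 1.12 CPM in SO mice 1 to 5. It was at 0.549, 0.742, 0.735, 0.583 and 1.21 CPM in LO and at 0.999, 1.68, 0.977, 0.597 and 1.06 CPM in PF. The 3 diets overlapped, with SO mouse 4 far above every other mouse. The SO group had 1.62 ± 1.80 CPM (mean ± SD, n = 5) and 0.824 ± 0.314 CPM without mouse 4 (n = 4), against 0.107 ± 0.0276 CPM at 12 weeks. Every SO mouse at 32 weeks was above every SO mouse at 12 weeks.

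Cd3g had more counts and a like pattern. At 12 weeks it was at 1.04, 0.831, 0.823, 0.796 and 0.698 CPM in SO, at 1.36, 0.853, 0.539, 2.55 and 1.34 CPM in LO and at 2.74, 2.46, 1.22, 2.02 and 1.07 CPM in PF. The lowest PF mouse, mouse 5, was just above the highest SO mouse, mouse 1, and LO overlapped both. At 32 weeks the values were 3.21, 2.38, 1.71, 8.99 and 3.59 CPM in SO, 1.54, 2.0, 1.72, 1.26 and 3.19 CPM in LO and 1.75, 2.83, 2.25, 1.85 and 2.79 CPM in PF. SO mouse 4 was again the highest and the diets overlapped. The SO mean was 0.837 ± 0.125 CPM at 12 weeks and 3.98 ± 2.90 CPM at 32 weeks (SD, n = 5), and 2.72 ± 0.843 CPM at 32 weeks without mouse 4.

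Cd3e had the lowest mean of the 3 per kilobase over the 30 mice, though in SO at 12 weeks Cd3d was lower, at 0.0587 against 0.111 CPM per kb. The 12-week values of Cd3e were 0.503, 0.400, 0.658, 0.153 and 0.552 CPM in SO, 0.563, 0.221, 0.432, 1.22 and 0.638 CPM in LO and 0.647, 1.37, 0.769, 1.05 and 0.405 CPM in PF. PF mouse 5 lay within the SO range and PF mouse 1 just below its top, so the groups overlapped. At 32 weeks Cd3e was at 0.973, 0.922, 0.869, 4.41 and 1.41 CPM in SO, 0.575, 0.896, 1.10, 0.829 and 1.45 CPM in LO and 0.600, 1.57, 1.47, 0.71 and 1.55 CPM in PF. The diets overlapped, and each of the 5 SO mice exceeded the 12-week SO range.

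Between PF and SO at 12 weeks the log2 fold change was 2.83 for Cd3d (SE 0.54), 1.19 for Cd3g (SE 0.36) and 0.91 for Cd3e (SE 0.44). The edgeR quasi-likelihood test with Benjamini-Hochberg adjustment over all genes gave an adjusted p of 0.138 for Cd3d, 0.246 for Cd3g and 0.657 for Cd3e, none under 0.05. DESeq2 gave Cd3d an adjusted p of 0.00250. Without PF mouse 5 edgeR also called Cd3d, at a log2 fold change of 3.0 with an adjusted p of 0.0252. At 32 weeks the same contrast had the other sign, at -0.58 for Cd3d, -0.77 for Cd3g and -0.52 for Cd3e, with SO mouse 4 in the fit. Without that mouse it was 0.38 for Cd3d, -0.23 for Cd3g and 0.18 for Cd3e, and neither edgeR nor DESeq2 called a CD3 gene with all mice in.

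From 12 to 32 weeks the CD3 genes rose in SO, by a log2 fold change of 3.88 for Cd3d (SE 0.61), 2.24 for Cd3g (SE 0.40) and 1.91 for Cd3e (SE 0.48). The adjusted p of the edgeR quasi-likelihood test (Benjamini-Hochberg) was 0.00261 for Cd3d, 0.00272 for Cd3g and 0.0173 for Cd3e. Without SO mouse 4 at 32 weeks the values were 2.91 for Cd3d and 1.69 for Cd3g, with an edgeR adjusted p of 0.0128 and 0.0168. Cd3d and Cd3g kept the call in 10 of 10 fits that left out a single SO mouse. Cd3e kept it in 8 of 10, losing it without mouse 4 at 12 weeks and without mouse 4 at 32 weeks, where its log2 fold change was 1.19. With the replicate number as a block Cd3e also lost the call (edgeR adjusted p = 0.0532). In LO the changes were 1.0 for Cd3d, 0.53 for Cd3g and 0.63 for Cd3e, and in PF 0.46, 0.26 and 0.47 in the same order, none of them past the threshold. With a single mouse left out the LO values ranged from 0.80 to 1.67 for Cd3d, 0.31 to 0.93 for Cd3g and 0.45 to 1.07 for Cd3e, highest without LO mouse 4 at 12 weeks. The PF values ranged from 0.23 to 0.85, 0.13 to 0.44 and 0.31 to 0.72 in the same order.

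Cd4 encodes the coreceptor of helper and regulatory T cells, and Cd8a and Cd8b1 encode the chains of the coreceptor of cytotoxic T cells. Cd4 (ENSMUSG00000023274) lies on chromosome 6 at 124864692 to 124888221, and Cd8a (ENSMUSG00000053977, 71373427 to 71379173) and Cd8b1 (ENSMUSG00000053044, 71322788 to 71337494) lie elsewhere on the same chromosome with starts 50.6 kb apart. At 12 weeks Cd4 was at 1.24, 0.400, 0.461, 0.459 and 0.872 CPM in SO, 0.870, 0.347, 0.755, 2.79 and 1.22 CPM in LO and 1.24, 3.02, 2.31, 1.10 and 0.694 CPM in PF. PF mice 2 and 3 and LO mouse 4 were high, and the 3 diets overlapped. At 32 weeks it was at 1.30, 2.53, 2.41, 9.53 and 1.32 CPM in SO, 1.25, 1.59, 8.27, 1.07 and 2.02 CPM in LO and 0.999, 3.51, 1.69, 1.28 and 1.26 CPM in PF. SO mouse 4 and LO mouse 3 were far above the rest, and the diets overlapped.

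LO mouse 3 at 32 weeks was not high in the CD3 genes, at 0.735 CPM of Cd3d and 1.72 CPM of Cd3g. Its 10 macrophage markers summed to 819 CPM, against 531, 377, 181 and 502 CPM in the other LO mice of 32 weeks. The part of macrophages in its Cd4 was not tested.

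Cd8a was at 0.637, 0.308, 0.724, 0.490 and 0.756 CPM in SO, 0.947, 0.410, 0.611, 1.22 and 1.12 CPM in LO and 1.48, 1.82, 0.769, 1.79 and 0.462 CPM in PF at 12 weeks. PF mouse 5 lay among the SO mice and the other PF mice lay above all of them. At 32 weeks Cd8a was at 1.98, 2.02, 1.37, 5.96 and 3.24 CPM in SO, 1.18, 2.15, 1.75, 1.17 and 1.28 CPM in LO and 1.22, 3.38, 1.16, 0.739 and 3.11 CPM in PF. PF mice 2 and 5 were close to SO mouse 5, and SO mouse 4 was above all.

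Cd8b1 had the fewest counts at 12 weeks with the 3 diets together, but in SO it had 20 counts against 17 of Cd3d. It was at 0.134, 0.0615, 0.165, 0.0613 and 0.204 CPM in SO (2 to 7 counts), 0.102, 0.0632, 0, 0.573 and 0.0911 CPM in LO and 0.259, 0.980, 0.245, 0.442 and 0.116 CPM in PF. LO mouse 3 had 0 counts, which allows up to 0.108 CPM (3 counts), and LO mouse 4 was high. The pooled level was 0.125 CPM in SO, 0.182 CPM in LO and 0.414 CPM in PF, with exact Poisson 95% intervals of 0.0765 to 0.193, 0.124 to 0.259 and 0.324 to 0.522 for counting error alone. At 32 weeks Cd8b1 was at 0.519, 0.536, 0.280, 2.31 and 1.06 CPM in SO, 0.183, 0.666, 0.735, 0.153 and 0.504 CPM in LO and 0.400, 1.83, 0.751, 0.341 and 1.26 CPM in PF. The diets overlapped, with SO mouse 4 and PF mouse 2 at the top.

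For the coreceptors, the log2 fold change between PF and SO at 12 weeks was 1.29 for Cd4 (SE 0.52) and 1.12 for Cd8a (SE 0.39), with an edgeR adjusted p (quasi-likelihood test, Benjamini-Hochberg) of 0.489 and 0.332. At 32 weeks the difference between PF and SO was -0.95 for Cd4, -0.58 for Cd8a and -0.02 for Cd8b1, and -0.10, -0.15 and 0.63 without SO mouse 4. Between PF and LO at 32 weeks Cd4 was at -0.69, and at 0.25 without LO mouse 3. Cd8b1 was at 1.04 in that contrast (SE 0.62, edgeR adjusted p = 0.660), and at 0.62 without PF mouse 2.

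Over time in SO the coreceptors rose by 2.31 for Cd4 (SE 0.65), 2.32 for Cd8a (SE 0.45) and 2.87 for Cd8b1 (SE 0.75), with an adjusted p of 0.0312, 0.00454 and 0.0217 (edgeR quasi-likelihood test, Benjamini-Hochberg). All 5 SO mice at 32 weeks were above all 5 at 12 weeks for each of the 3 genes. Over all genes edgeR called 6.46%, and 5.13% were separated in that direction. Without SO mouse 4 at 32 weeks the values were 1.46, 1.87 and 2.22. Only Cd8a was then called among the 3, with an edgeR adjusted p of 0.0308, against 1.35% of all genes called. Cd8a was called in 10 of 10 fits that left out a single SO mouse. Cd8b1 was called in 7, not without 12-week mouse 2 or 4 or 32-week mouse 4. Cd4 was called in 5, not without 12-week mouse 2, 3, 4 or 5 or 32-week mouse 4. With the replicate number as a block Cd4 also lost the call (edgeR adjusted p = 0.0722). In LO the value for Cd4 was 1.23 (SE 0.62, edgeR adjusted p = 0.257, not called), 0.31 without LO mouse 3 at 32 weeks and 1.86 without LO mouse 4 at 12 weeks. Cd8a and Cd8b1 were at 0.79 and 1.345 in LO. In PF Cd4, Cd8a and Cd8b1 were at 0.066, 0.60 and 1.16, and none of these was called. With a single mouse left out Cd8b1 ranged from 1.09 to 2.69 in LO. In PF Cd8b1 then ranged from 0.74 to 1.79, Cd8a from 0.30 to 0.83 and Cd4 from -0.36 to 0.41.

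The balance of the coreceptors was described by 2 ratios of counts in each mouse. The log2 ratio of Cd8a to Cd4 averaged -0.16 ± 0.58 in SO, -0.25 ± 0.56 in LO and -0.38 ± 0.88 in PF at 12 weeks (SD, n = 5), and 0.02 ± 0.90, -0.49 ± 1.05 and 0.04 ± 0.81 at 32 weeks. LO mouse 3 at 32 weeks was the lowest of the 30 mice, at -2.23. None of the 9 comparisons of this ratio differed beyond the spread between mice, with adjusted p from 0.779 to 0.976 by a two-sided exact permutation test.

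The log2 ratio of Cd8b1 to Cd8a at 32 weeks was -1.90, -1.89, -2.24, -1.36 and -1.60 in SO, -2.60, -1.67, -1.23, -2.81 and -1.31 in LO and -1.58, -0.88, -0.62, -1.08 and -1.29 in PF. PF mice were mostly higher, with PF mouse 1 among the SO mice. The mean of PF was above that of SO by 0.71 (exact permutation p = 0.0159, adjusted p = 0.286 over 18 tests) and above that of LO by 0.83 (exact permutation p = 0.0476, adjusted p = 0.429). With 5 mice against 5 the smallest p that 252 arrangements allow is 0.00794. No ratio passed after adjustment, and a single comparison at that smallest p could not have passed over 18 tests.

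Lck (ENSMUSG00000000409, chromosome 4, 129548344 to 129573641, minus strand) encodes the kinase that phosphorylates the CD3 chains when the receptor is engaged. It overlaps the microRNA gene Mir8119 on the same strand. At 12 weeks Lck was at 1.68, 0.80, 1.28, 0.888 and 0.989 CPM in SO, 1.41, 0.821, 0.683, 3.18 and 1.31 CPM in LO and 2.18, 3.61, 1.01, 2.29 and 1.04 CPM in PF. PF mice 3 and 5 lay among the SO mice and the other PF mice above them. At 32 weeks it was at 2.21, 2.56, 1.49, 8.15 and 2.18 CPM in SO, 1.52, 2.15, 2.36, 1.72 and 2.32 CPM in LO and 1.60, 3.48, 2.14, 1.39 and 2.20 CPM in PF. The diets overlapped, with SO mouse 4 and PF mouse 2 the highest.

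Lck differed between PF and SO by 0.86 at 12 weeks (SE 0.43, edgeR adjusted p = 0.679, 0.54 without PF mouse 2) and by -0.59 at 32 weeks, or 0.05 without SO mouse 4. In SO it rose by 1.56 from 12 to 32 weeks (SE 0.44, edgeR quasi-likelihood test, Benjamini-Hochberg adjusted p = 0.0311), with SO mouse 3 at 32 weeks below SO mouse 1 at 12 weeks. Without SO mouse 4 at 32 weeks the change was 0.90 and was not called. The call was also lost without 12-week mouse 2, 3, 4 or 5, and with the replicate number as a block (edgeR adjusted p = 0.0709).

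Cd2 (ENSMUSG00000027863, chromosome 3, 101275899 to 101287939, minus strand) encodes an adhesion receptor of lymphocytes, among them T cells and natural killer (NK) cells. At 12 weeks it was at 0.302, 0.369, 0.329, 0.674 and 0.552 CPM in SO, 0.409, 0.410, 0.468, 1.61 and 1.28 CPM in LO and 1.09, 1.96, 2.69, 0.718 and 0.665 CPM in PF. PF mouse 5 was just below SO mouse 4 and the other PF mice were above every SO mouse. The 32-week values were 1.07, 1.46, 1.12, 6.38 and 1.09 CPM in SO, 1.28, 0.998, 1.68, 0.890 and 2.08 CPM in LO and 0.849, 2.10, 1.01, 0.938 and 1.52 CPM in PF. The diets overlapped and SO mouse 4 stood alone.

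Cd2 differed by 1.66 between PF and SO at 12 weeks (SE 0.49, edgeR adjusted p = 0.239) and by -0.77 at 32 weeks, or 0.13 without SO mouse 4. From 12 to 32 weeks in SO it rose by 2.31 (SE 0.53, edgeR quasi-likelihood test, Benjamini-Hochberg adjusted p = 0.0108), with no overlap between the time points. Leaving out SO mouse 4 at 32 weeks brought the change to 1.39, not called, and Cd2 was called in the other 9 of 10 fits.

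Cd28 (ENSMUSG00000026012, chromosome 1, 60716800 to 60773359, plus strand) encodes a costimulatory receptor. It ranged from 2.85 CPM in PF mouse 1 at 12 weeks to 7.13 CPM in SO mouse 4 at 32 weeks. Its group means in SO, LO and PF were 4.16, 4.10 and 3.77 CPM at 12 weeks and 4.94, 4.05 and 4.56 CPM at 32 weeks. The groups overlapped throughout. Its change in SO was 0.25 (edgeR adjusted p = 0.432), or 0.071 without SO mouse 4 at 32 weeks. Its largest difference between diets was -0.28 (LO against SO at 32 weeks), or -0.11 without that mouse, and it was not called in any comparison.

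Thy1 (ENSMUSG00000032011, chromosome 9, 44043384 to 44048579, plus strand, 966 kb from Cd3e) encodes a surface glycoprotein of mouse T cells that fibroblasts and neurons also carry. It ranged from 3.92 CPM in LO mouse 2 at 12 weeks to 14.4 CPM in PF mouse 2 at 32 weeks. Its means in SO, LO and PF were 5.56 ± 0.954, 6.16 ± 1.77 and 7.91 ± 1.72 CPM at 12 weeks and 9.65 ± 2.01, 8.50 ± 2.49 and 8.39 ± 3.53 CPM at 32 weeks (SD, n = 5). SO mouse 2 at 32 weeks was just below SO mouse 1 at 12 weeks, and the other SO mice separated by time.

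Thy1 was 0.51 higher in PF than in SO at 12 weeks on the log2 scale (SE 0.20, edgeR adjusted p = 0.465). Its rise in SO was 0.79 (SE 0.25, edgeR quasi-likelihood test, Benjamini-Hochberg adjusted p = 0.0497), close to the threshold. That call was lost in 9 of 10 fits that left out a single SO mouse and kept only without 32-week mouse 2, with log2 fold changes from 0.68 to 0.89. It was also lost with median-of-ratios scaling in edgeR (adjusted p = 0.0512) and with no filter on low counts (adjusted p = 0.0751). The replicate number as a block ended the call too (edgeR adjusted p = 0.0655).

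**Figure D2:**
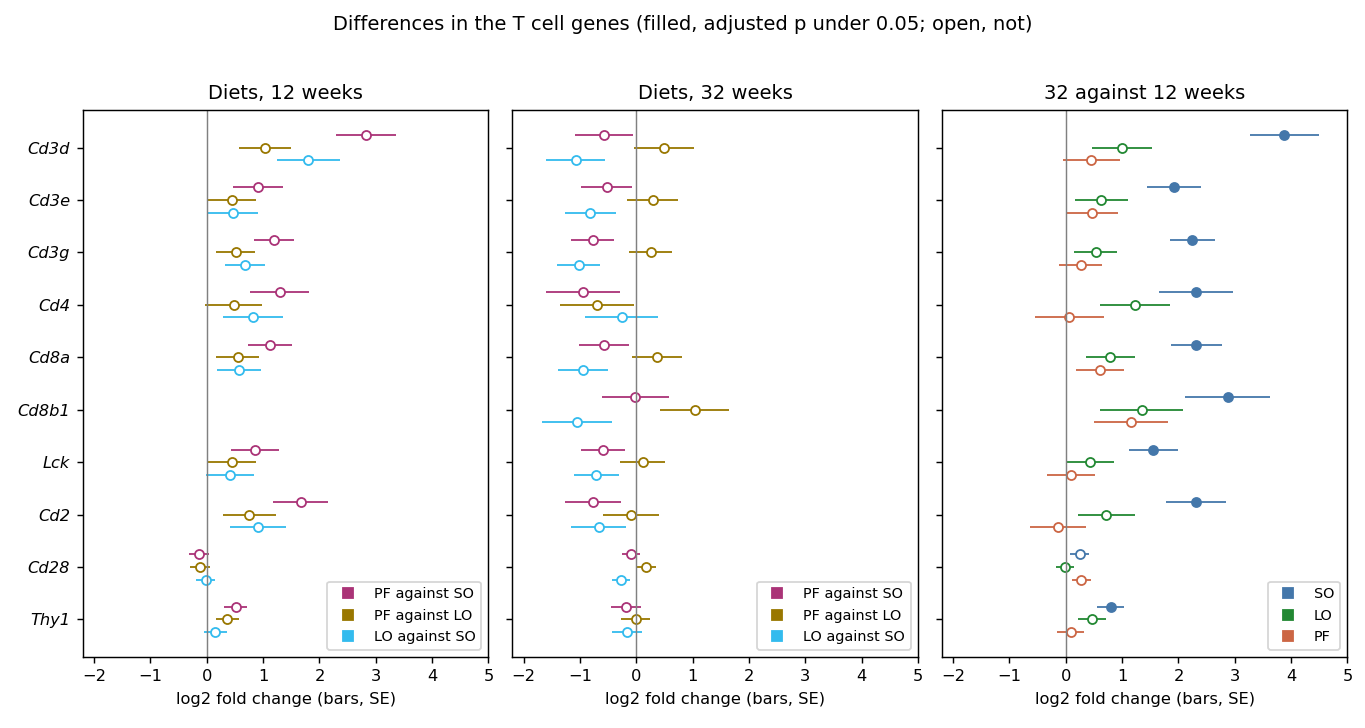
Log2 fold change of each T cell gene between diets at 12 weeks, between diets at 32 weeks and from 12 to 32 weeks within each diet, with the SE as bars and filled points for an edgeR adjusted p under 0.05. Filled points appear for SO over time in 9 genes, while the 12-week diet differences lie right of 0 for every tested gene but Cd28, and Cd8b1 was not tested there.

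Counted together, 8 of the 9 tested T cell genes were higher in PF than in SO at 12 weeks, at a median log2 fold change of 1.12 against -0.01 over all genes. The edgeR test called 0 of them and 0 genes in all (0.0%), with 6 of the 9 at an unadjusted p under 0.05 against 1269 of 15873 genes. DESeq2 called 1, Cd3d, where it called 1.31% of all genes. The groups did not overlap for 2 of the 9, Cd3d and Cd3g, and 1.13% of all genes were separated in that direction. Without PF mouse 5 edgeR called 131 of 16014 genes and 1 T cell gene, Cd3d.

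At 12 weeks the LO values lay between those of the other diets for most of the genes. PF against LO gave 8 of 9 higher, at a median of 0.48 against 0.00 over all genes, with 0 called by edgeR (0.0% of all genes), 1 at an unadjusted p under 0.05 (Cd3d, 1.03, with 9.24% of all genes) and 0 by DESeq2 (0.522% of all genes), which gave Cd3d no adjusted p there. LO against SO also gave 8 of 9 higher, at a median of 0.57 against 0.00, with 0 called by edgeR (0.0%), 1 at an unadjusted p under 0.05 (Cd3d, 1.80, with 4.28% of all genes) and 0 by DESeq2 (0.0%). Without LO mouse 4 the medians were 0.90 and 0.22, and that of PF against LO was 0.29 without PF mouse 2 and 0.30 without LO mouse 2. Cd3d in PF against LO was at 1.69 without LO mouse 4 and at 0.64 without PF mouse 2, and in LO against SO at 1.14 without LO mouse 4. These comparisons share their groups and are not independent of each other.

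By 32 weeks the order of the diets was not that of 12 weeks. Against SO, all 10 T cell genes were lower in PF, at a median of -0.58, and all 10 in LO, at a median of -0.76, against 0.00 over all genes in each. For PF against SO, edgeR called 0 (0.0% of all genes), with 0 at an unadjusted p under 0.05 (10.8%), and DESeq2 called 0 (0.726%). For LO against SO, edgeR called 0 (0.0%), with 1 at an unadjusted p under 0.05 (Cd3g, -1.03, with 3.48% of all genes), and DESeq2 called 0 (0.0234%). Without SO mouse 4 the differences from SO ranged from -0.23 (Cd3g) to 0.63 (Cd8b1) in PF, 6 of them positive, and from -0.51 (Cd8a) to 0.59 (Cd4) in LO. PF against LO, which does not hold that mouse, gave 7 higher and 3 lower at a median of 0.22 against 0.01 (0.10 without PF mouse 2, where Lck turned negative), with 0 called by edgeR (0.0%), 0 at an unadjusted p under 0.05 (8.6%) and 0 by DESeq2 (0.585%).

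From 12 to 32 weeks 9 of the 10 T cell genes rose in SO by the edgeR test, all but Cd28, where 1073 of 16605 genes were called (6.46%), 871 of them higher. The median log2 fold change of the 10 genes was 2.27, or 1.43 without SO mouse 4 at 32 weeks, against -0.00 over all genes, and DESeq2 called 9 (8.03% of all genes). Blocked by replicate number, the edgeR fit called 5, among 898 of 16605 genes, and Cd3e, Cd4, Lck and Thy1 lost the call at log2 fold changes of 1.72, 2.08, 1.38 and 0.84. The time points did not overlap for 7 of the 10 genes, all but Lck, Cd28 and Thy1, and 5.13% of all genes were separated in that direction. Without SO mouse 4 at 32 weeks 3 T cell genes were called, Cd3d, Cd3g and Cd8a, among 226 of 16753 genes (1.35%). Leaving out SO mouse 1, 2, 3, 4 or 5 of 12 weeks left 8, 5, 6, 4 and 6 T cell genes called, among 673, 806, 774, 514 and 489 genes. Leaving out SO mouse 1, 2, 3 or 5 of 32 weeks left 8, 9, 8 and 8, among 1556, 734, 761 and 941 genes.

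In LO, 9 of the 10 genes were higher at 32 weeks, at a median of 0.68, or 1.02 without LO mouse 4 at 12 weeks. The edgeR test called 0 of them, with 0 at an unadjusted p under 0.05 (20.5% of all genes), while it called 448 genes (2.7%), and DESeq2 called 0 of them (6.56% of all genes). The 448 became 101, 47 and 714 without LO mouse 2, 3 or 4 of 12 weeks, and 250, 82, 1043 and 186 without LO mouse 1, 3, 4 or 5 of 32 weeks, with 0 T cell genes called each time. In PF, 9 of 10 were higher, at a median of 0.27 (0.41 without PF mouse 2 of 12 weeks and 0.20 without PF mouse 2 of 32 weeks), and edgeR called 0 of them, with 0 at an unadjusted p under 0.05 (10.2% of all genes), among 5 genes called (0.0301%). DESeq2 called 0 of them there (0.295% of all genes), and the 5 genes became 0 without PF mouse 1, 2 or 3 of 12 weeks or mouse 3 of 32 weeks, 1 without mouse 4 of 12 weeks, 2 without mouse 5 of 12 weeks or mouse 2 of 32 weeks, and 3 without mouse 5 of 32 weeks.

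Whether the diet differences themselves changed with time was tested in the fit of all 6 groups. For PF against SO the 32-week log2 difference minus that of 12 weeks was -3.42 for Cd3d (SE 0.79, edgeR adjusted p = 0.210), -1.98 for Cd3g and -2.44 for Cd2, with a median of -1.72 over the 10 genes. Without SO mouse 4 at 32 weeks these were -2.44, -1.41, -1.52 and -1.15. The edgeR test called 0 of the 10 and 0 genes in all (0.0%), with 8 of the 10 at an unadjusted p under 0.05 (9.49% of all genes), and DESeq2 called 1, Cd3d, at -3.46 with an adjusted p of 0.0220 (0.224% of all genes). For LO against SO the median was -1.40, or -0.60 without SO mouse 4 at 32 weeks and -0.72 without LO mouse 4 at 12 weeks, with 0 called by edgeR (0.0%), 4 at an unadjusted p under 0.05 (3.33% of all genes) and 0 by DESeq2 (0.0%). For PF against LO the median was -0.31, from -0.75 (without LO mouse 4 at 12 weeks) to -0.10 (without PF mouse 2 at 12 weeks) when a mouse was left out, with 0 called by edgeR (0.0%), 0 at an unadjusted p under 0.05 (7.79%) and 0 by DESeq2 (0.0702%). The rise in SO is therefore not shown by edgeR to differ from the changes in LO and PF, and by DESeq2 it is for Cd3d against PF only.

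Across the 30 mice most of the genes followed each other. Pearson's r of log2 CPM with the mean of the CD3 genes was 0.92 for Lck, 0.92 for Cd8b1, 0.90 for Cd8a, 0.85 for Cd2, 0.80 for Cd4, 0.75 for Thy1 and 0.32 for Cd28. With group means subtracted it was 0.93 for Lck, 0.89 for Cd8b1, 0.79 for Cd8a, 0.73 for Cd2, 0.70 for Cd4, 0.58 for Thy1 and 0.23 for Cd28. Spearman's rho was 0.90 for Lck, 0.72 for Thy1 and 0.16 for Cd28. Without the 2 mice farthest from the median of the CD3 mean, SO mouse 4 of 32 weeks and SO mouse 4 of 12 weeks, r was 0.88 for Lck, 0.71 for Cd4, 0.70 for Thy1 and 0.04 for Cd28. Values of a mouse share its library and depth, and these are descriptions with no test.

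**Figure D3:**
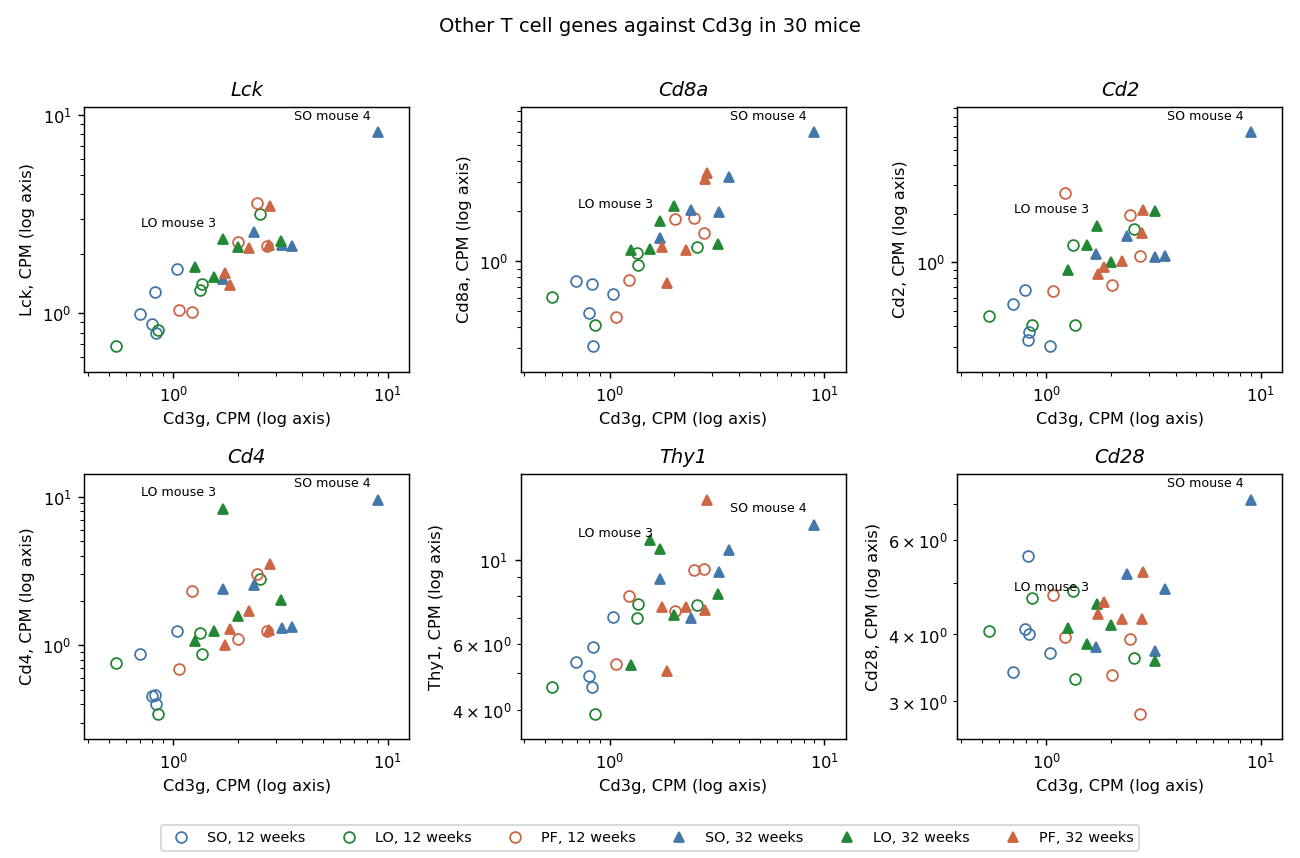
Level of Lck, Cd8a, Cd2, Cd4, Thy1 and Cd28 against Cd3g (CPM, log axes) in the 30 mice, open circles at 12 weeks and filled triangles at 32 weeks. Lck follows Cd3g most closely, LO mouse 3 at 32 weeks leaves the trend in Cd4 at 8.27 CPM, and Cd28 shows little trend.

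The 10 genes outside the list whose log2 CPM was most like the mean of Cd3d, Cd3e and Cd3g over the 30 mice were Ms4a4b (r = 0.98), Trbc2 (0.94), Trac (0.93), Cd5 (0.93), Klrd1 (0.93), Cxcr6 (0.93), Skap1 (0.92), Gimap4 (0.92), Cxcr3 (0.91) and Cd72 (0.91). With group means subtracted Ms4a4b was at 0.95 and the lowest of the 10, Cxcr3, at 0.82. Over all 16605 genes the median r was -0.01, and 1.42% of them were above 0.8.

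Other genes that work in T cells were read from lists chosen by function, and the part of other cells in their levels was not tested. In SO over time, edgeR called higher 5 of 6 tested T cell receptor chains (median log2 fold change 2.11), 10 of 15 receptor signalling genes (1.95), 11 of 13 costimulatory and inhibitory receptors (2.33) and 11 of 20 transcription factors and subset genes (1.90), and 0 lower, against 6.46% of all genes called. DESeq2 was read over all genes of a list, without the edgeR filter, here and in the lists below. It called 7 of 7, 13 of 17, 11 of 14 and 13 of 20 genes higher in the same lists, against 8.03%. Among the receptor constant regions, Trbc1 rose by 2.37 and Trbc2 by 2.69, and Tcrg-C2 of the gamma delta receptor by 1.86. Ptpn22, a phosphatase that restrains receptor signals, rose by 2.28, the adaptor Lcp2 by 1.83 and the adaptor Skap1 by 1.97. The inhibitory receptors Tigit, Lag3 and Havcr2 rose by 3.22, 1.5 and 1.48. Cxcr6, a chemokine receptor of tissue T cells, rose by 2.09, Itgae, an integrin that binds epithelial cadherin, by 0.90 and the lymphocyte transcription factor Ikzf3 by 2.14. With SO mouse 4 of 32 weeks left out edgeR called 0, 2, 5 and 5 genes of these lists, at medians of 1.59, 1.40, 1.37 and 1.28, against 1.35% of all genes. Of the genes just named, Ptpn22, Lcp2, Tigit, Lag3, Havcr2, Cxcr6, Itgae and Ikzf3 kept the call, and Trbc1, Trbc2, Tcrg-C2 and Skap1 lost it. Of the same lists in PF against SO at 12 weeks edgeR called 0, with 4 of 6, 9 of 12, 9 of 11 and 11 of 17 higher at an unadjusted p under 0.05 (7.99% of all genes), and DESeq2 called 1, 3, 3 and 6 higher (1.31% of all genes called). In the last list 1 gene was lower at an unadjusted p under 0.05 and 1 was called lower by DESeq2. Without PF mouse 5 edgeR called 0, 3, 1 and 0 higher there (0.818% of all genes).

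Among the receptor signalling genes Trat1 had at most 10 counts in every mouse, and among the receptor chains no identifier was matched to Trdc, of the delta chain.

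Markers of other leukocytes moved with the T cell genes in SO over time. The edgeR test called higher 6 of 8 cytotoxic effector genes (median 1.5), 5 of 7 NK cell markers (1.36), 5 of 6 B cell markers (2.95), 5 of 10 macrophage markers (1.05), 3 of 8 dendritic cell markers (0.70), 1 of 3 neutrophil markers (1.22) and 4 of 4 genes found in all leukocytes (1.64), against 6.46% of all genes called. Gzma rose by 1.92, Klrb1c by 1.5, Ms4a1 by 3.80, Fcgr1 by 1.63, Itgax by 1.49 and Ptprc by 1.85. The numbers called without SO mouse 4 at 32 weeks were 4, 2, 0, 1, 1, 0 and 2 in the same order (1.35% of all genes), and of the genes just named all but Ms4a1 kept the call. The 6 B cell markers summed to 5.52, 22.1, 24.4, 90.5 and 4.88 CPM in SO mice 1 to 5 at 32 weeks, and to 3.32, 1.91, 4.51, 1.72 and 5.21 CPM at 12 weeks. SO mouse 4 at 32 weeks was the highest of the 30 mice, while SO mice 1 and 5 at 32 weeks were close to the highest SO mouse of 12 weeks. The 10 macrophage markers, among them Lyz2 at a mean of 129 CPM, summed to 209, 334, 502, 442 and 442 CPM in SO at 32 weeks and to 144, 173, 170, 184 and 202 CPM at 12 weeks. In LO over time the share of all genes at an unadjusted p under 0.05 was 20.5%. Higher at that level were 3 of 8 cytotoxic effector, 6 of 7 NK cell, 0 of 6 B cell and 10 of 10 macrophage genes. Of the dendritic cell, neutrophil and all-leukocyte genes, 2 of 8, 2 of 3 and 2 of 4 were. In the same order edgeR called 1, 1, 0, 0, 1, 0 and 0 (2.7% of all genes). DESeq2 called 1, 3, 0, 8, 1, 0 and 0 (6.56%). The part of these cells in the T cell gene results was not tested.

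In PF against SO at 12 weeks the leukocyte lists had 0 genes called by edgeR. At an unadjusted p under 0.05 were 6 of 7 cytotoxic effector genes (median 0.67), 5 of 7 NK cell markers (0.84), 5 of 5 B cell markers (2.31), 10 of 10 macrophage markers (0.91), 5 of 8 dendritic cell markers (0.77), 2 of 2 neutrophil markers (1.49) and 4 of 4 genes found in all leukocytes (1.25), against 7.99% of all genes. The B cell markers summed to 5.88, 39.2, 34.0, 2.29 and 3.90 CPM in PF mice 1 to 5, with PF mice 2 and 3 far above the others and PF mice 4 and 5 within the SO range. DESeq2 called 0, 0, 0, 6, 2, 0 and 4 genes of these lists (1.31% of all genes), and edgeR without PF mouse 5 called 0, 0, 0, 3, 1, 0 and 3 (0.818%). The genes found in all leukocytes summed to 80.0, 94.1, 89.7, 53.8 and 35.5 CPM in PF mice 1 to 5 and to 31.9, 29.5, 29.5, 29.1 and 36.5 CPM in SO. PF mouse 5, the lowest of its group in 8 T cell genes, was below the highest SO mouse in this sum too. In the same contrast 4 of 4 endothelial markers (median 0.35) and 6 of 6 fibroblast markers (0.39) were higher, 3 and 2 of them at an unadjusted p under 0.05, with 0 called by edgeR or DESeq2.

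Markers of thymus and of lymph node tissue were read as well. Rag1, Rag2, Ptcra and Dntt, made in developing T cells, had at most 10 counts in every mouse, and Cd1d1, the only thymocyte marker past the filter, was at 0.29 in SO over time. Of the lymph node stroma and high endothelial venule markers, Madcam1 and Chst4 had at most 10 counts in every mouse. In SO over time edgeR called 0 of the 5 tested (median 0.78), against 6.46% of all genes. At an unadjusted p under 0.05 was 1 (Cr2, a complement receptor, at 4.27), against 19.7%, and DESeq2 called 1, against 8.03%. In SO mouse 4 at 32 weeks that list summed to 46.6 CPM, beside 46.8 CPM in SO mouse 3. The highest sum of all mice was 67.3 CPM, in LO mouse 3 at 32 weeks. Cxcl13 made up 54.1% of the summed level of the list over all mice, so these sums rest mostly on that gene. The part of lymph node tissue in the T cell gene results was not tested.

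The tissue was prostate by its epithelial markers, of which Sbp, a secreted protein of the ventral lobe, was at a mean of 1.70e+05 CPM. In SO over time 1 of 10 epithelial markers rose (Trp63, 0.44) and 1 fell (Sbp, -0.96), against 871 and 202 of 16605 genes, at a median of 0.13, and Trp63 lost the call without SO mouse 4 at 32 weeks. The 10 epithelial markers summed to 2.59e+05, 2.26e+05, 3.03e+05, 2.82e+05 and 3.21e+05 CPM in SO mice at 12 weeks and to 1.58e+05, 1.71e+05, 1.44e+05, 1.46e+05 and 1.64e+05 CPM at 32 weeks. The sum was lower in every SO mouse at 32 weeks than in any at 12 weeks, and its part in the T cell gene results was not tested. Called in the same contrast were 0 of 6 fibroblast markers (median 0.09), 0 of 5 smooth muscle markers (-0.13), 0 of 5 adipocyte markers (-0.80) and 0 of 4 endothelial markers (0.25) by edgeR. At an unadjusted p under 0.05 were 1, 0, 0 and 1 of these, against 19.7% of all genes, and DESeq2 called 0 in each list.

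**Figure D4:**
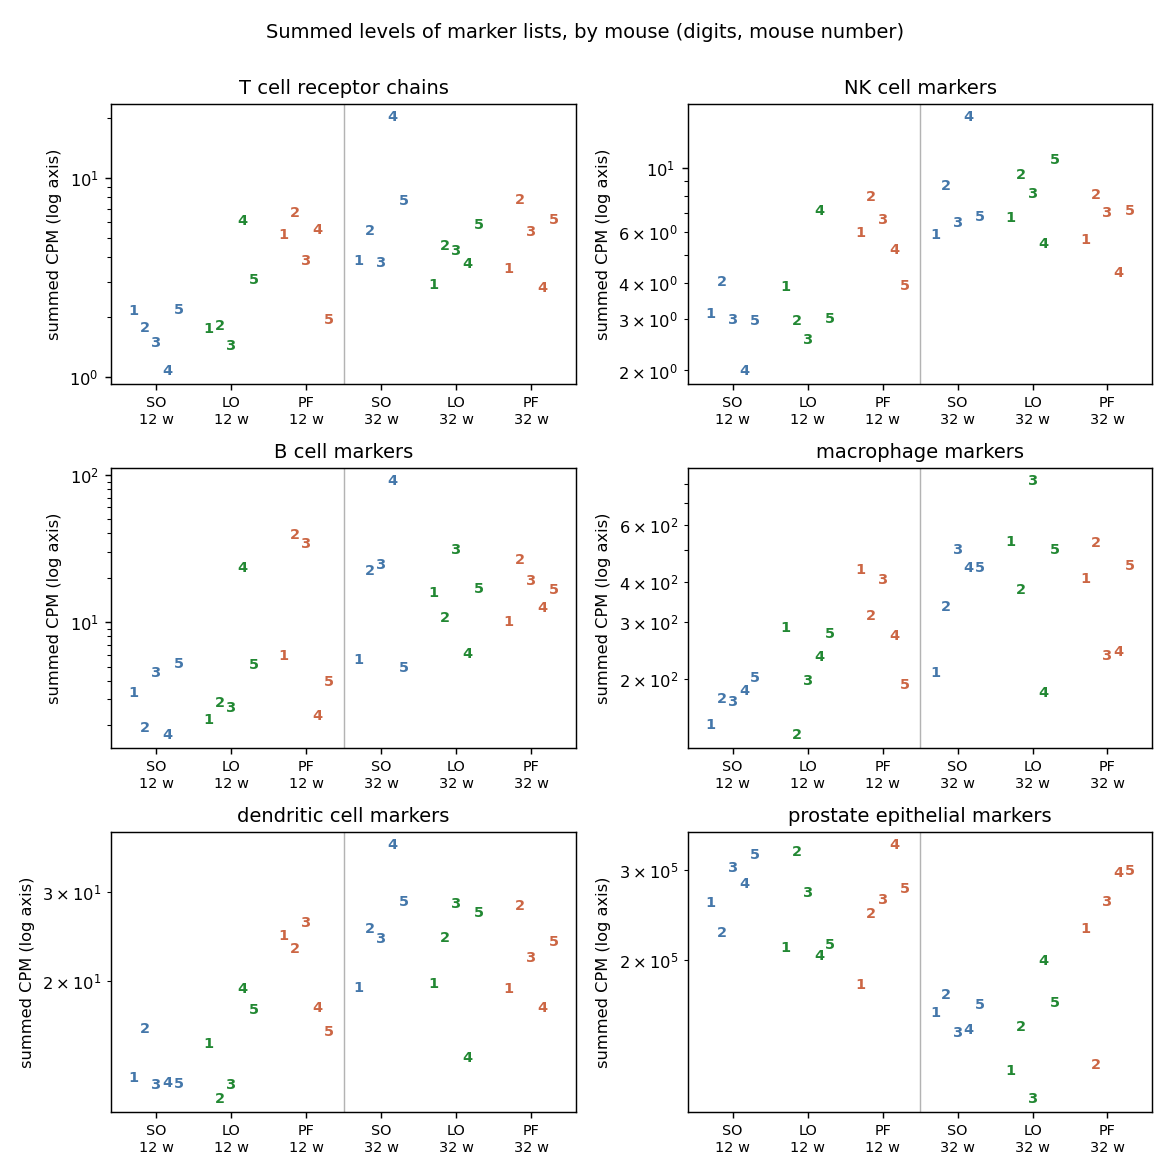
Summed level (CPM, log axis) of 6 marker lists in each of the 30 mice, with the mouse number as the plotting symbol. SO mouse 4 at 32 weeks is the highest mouse for T cell receptor chains, NK cell, B cell and dendritic cell markers. LO mouse 3 at 32 weeks is the highest for macrophage markers at 819 CPM. The epithelial sums of SO, mostly Sbp, are lower at 32 than at 12 weeks.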

How the data were processed

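Read counts per gene (HTSeq, one table for each library) were deposited by the authors, who aligned the reads with TopHat2 to GRCm38.p6. Of the counted pairs 6.67 to 12.2% fell in no gene, 16 to 20.3% did not align uniquely and 0.831 to 1.18% were ambiguous. Gene identifiers were matched to symbols (37607 of 39179). Counts were analysed in R 4.3.3 with edgeR 4.0.16 (filterByExpr with a minimum count of 10, TMM, two-sided quasi-likelihood F test, Benjamini-Hochberg over all genes tested, adjusted p under 0.05). The 3 diets of a time point were fitted together, and changes over time used all 6 groups. DESeq2 1.42.0, the authors' test, was run beside it. The CPM of all 30 libraries were scaled by TMM, chosen after the large shares of secretory genes were seen, and a prior count of 2 was added for log2 CPM. Ratios had 0.5 added to each count before two-sided exact permutation tests over 252 arrangements (Python 3.11.15, scipy 1.17.1).

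Alternatives were DESeq2, median-of-ratios scaling, no filter on low counts, the 6 groups or only the 2 diets compared in a fit, the replicate number as a block, 1 added to counts in ratios and each mouse left out in turn. A block shared by the time points was added after seeing the data. The T cell genes and the other lists were chosen with earlier results of these data known. The T cell genes past the filter were counted in every comparison, though in some comparisons values are printed for only part of them. Up to 3 genes of smallest unadjusted p were named from each other list, with the 10 genes most like the CD3 mean.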

Additional observations from a re-analysis of the deposited data

Results flagged for a closer look

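In groups of 5, a mouse was singled out where its gap to the nearest other mouse exceeded 0.71 of the range of its group. Chance gives this in about 1 of 20 groups of normally distributed values. The CPM were used without logs and every mouse singled out was the highest of its group, so that share may not hold here. Of 72 groups tested, 10 held such a mouse, and 6 of these were SO mouse 4 at 32 weeks, a single library whose values are not independent of each other.

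SO mouse 4 at 32 weeks was the highest of its group for Cd3d at 4.80 CPM (gap 0.860 of the range), Cd3e at 4.41 CPM (0.846), Cd3g at 8.99 CPM (0.742), Cd4 at 9.53 CPM (0.850), Lck at 8.15 CPM (0.839) and Cd2 at 6.38 CPM (0.927).

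LO mouse 3 at 32 weeks was highest for Cd4 at 8.27 CPM (0.869).

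PF mouse 2 at 32 weeks was highest for Cd4 at 3.51 CPM (0.725) and for Thy1 at 14.4 CPM (0.740).

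LO mouse 4 at 12 weeks was highest for Cd8b1 at 0.573 CPM (0.821), with the other mice of the group near or at 0 counts.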

How the results depend on the processing

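Fits that left out a mouse are given apart, further down. For the results that answer a comparison, 145 of the other alternatives left the value within the same range and 17 moved it, and for single genes 600 left direction and call as they were, 8 lost the call, 2 gained it and 1 reversed. The cause of these changes was not tested. Depth limits Cd3d and Cd8b1 most, with 2 to 7 counts in an SO mouse at 12 weeks, and 5 mice in a group limit every test.

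DESeq2 called 225 genes and 1 T cell gene (Cd3d) for PF against SO at 12 weeks, 75 genes for PF against LO at 12 weeks, 109 genes for PF against SO at 32 weeks, 85 for PF against LO and 6 for LO against SO. It called 1089 genes over time in LO and 52 in PF, 44 genes and 1 T cell gene (Cd3d) for the change of PF against SO with time, and 12 genes for that of PF against LO. With all 6 groups in a fit, 2 genes were called for PF against LO at 12 weeks and 2 at 32 weeks. With only the diets compared in the fit, 1 gene was called for LO against SO at 32 weeks. With no filter on low counts 0 genes were called over time in PF, and Cd28 over time in LO changed sign to 0.0022.

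The replicate number was not taken as a pairing of mice across diets. Pairs of the same number had a mean correlation of 0.067 at 12 weeks and 0.127 at 32 weeks, and pairs of other numbers -0.016 and -0.028, and 5 of 15 and 10 of 15 pairs of the same number were above 0.1. With the replicate block 5 T cell genes were called over time in SO, among 898 genes, 500 genes in LO and 0 in PF. The adjusted p in SO over time (edgeR) was then 0.0532 for Cd3e, 0.0722 for Cd4, 0.0709 for Lck and 0.0655 for Thy1. With a block shared by the time points, chosen after seeing the data, it was 0.0656 for Cd4 and 0.0522 for Lck. For Thy1 it was 0.0512 with median-of-ratios scaling and 0.0751 with no filter.

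Leaving out each mouse in turn gave these ranges. For PF against SO at 12 weeks 0 to 131 genes and 0 to 1 T cell genes were called, for PF against LO at 12 weeks 0 to 1 genes, and for PF against SO at 32 weeks 0 to 1 genes. Over time 47 to 1043 genes were called in LO, 226 to 1556 genes and 3 to 9 T cell genes in SO, and 0 to 7 genes in PF. The change of PF against SO with time had 0 to 3 genes.

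The log2 fold changes that changed sign were these. For LO against SO at 12 weeks Lck ranged from -0.090 to 0.59 and Cd28 from -0.089 to 0.11. For PF against SO at 32 weeks Cd3d ranged from -0.80 to 0.38, Cd3e from -0.69 to 0.18, Cd8b1 from -0.43 to 0.63, Lck from -0.83 to 0.051, Cd2 from -1.01 to 0.13 and Cd28 from -0.18 to 0.071. For PF against LO at 32 weeks Cd4 ranged from -1.11 to 0.25, Lck from -0.12 to 0.24, Cd2 from -0.34 to 0.097 and Thy1 from -0.29 to 0.12. For LO against SO at 32 weeks Cd4 ranged from -1.19 to 0.59 and Cd2 from -0.86 to 0.23.

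Over time Cd28 in LO ranged from -0.068 to 0.072. In PF over time Cd4 ranged from -0.36 to 0.41, Lck from -0.15 to 0.42, Cd2 from -0.39 to 0.23 and Thy1 from -0.20 to 0.24. The change with time of PF against SO ranged from -0.087 to 0.22 for Cd28, and that of PF against LO from -0.59 to 0.071 for Cd3e, -0.51 to 0.014 for Cd8a and -1.52 to 0.42 for Cd8b1.

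The log2 ratio of Cd8a to Cd4 ranged from -0.50 to 0.067 for PF against SO at 12 weeks, -0.41 to 0.16 for PF against LO at 12 weeks, -0.29 to 0.14 for LO against SO at 12 weeks, -0.29 to 0.34 for PF against SO at 32 weeks, -0.47 to 0.20 over time in LO and -0.14 to 0.38 over time in SO. That of Cd8b1 to Cd8a ranged from -0.30 to 0.093 for LO against SO at 32 weeks.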
